A study of Sus scrofa with 31 samples.

Results

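The comparison covers 4388 of the 25149 genes listed for reperfused pig (Sus scrofa) hearts, namely those with a mean of at least 10 TPM (transcript abundance scaled to gene length and library total) over the 7 libraries made after warm reperfusion. It sets 2 libraries of myocardium kept for 24 h under the condition labelled HOPE against 2 libraries kept for 3 h under HOPE. All 4 were then reperfused warm for 2 h by normothermic machine perfusion (NMP), a pump circuit at body temperature, before the biopsy. The series holds 31 libraries in all; the other reperfused libraries are 2 after 48 h of HOPE and 1 after 24 h of the condition labelled SCS, each followed by the same NMP. In heart preservation HOPE is usually read as hypothermic oxygenated perfusion and SCS as static cold storage; the labels use the short forms only. No heart in this set lacks NMP, and none was sampled without cold preservation, so the 3 h group is a short-storage reference and not fresh myocardium. Strain, age and sex are not used here. The labels number the libraries of a group without saying whether each number is a separate animal, so p-values measure the spread between libraries.

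Cold preservation slows metabolism while the organ is out of the body, and perfusion with oxygen keeps some supply going. Rewarming brings back blood-warm temperature, flow and oxygen within minutes. In the heart this is known to switch on immediate early genes, chaperones, cytokines and adhesion molecules on the endothelium, while the bulk of cardiac mRNA encodes mitochondrial and contractile proteins. The comparison asks whether myocardium that has been cold for a day meets reperfusion with a different transcript profile than myocardium that has been cold for a few hours.

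Myocardium is the labelled tissue and cardiomyocytes the labelled cell type, and a biopsy also holds vessels, stroma and blood cells. The 4 libraries all had very high cardiomyocyte transcripts. TNNT2, cardiac troponin T, stood at 20400 and 17790 TPM after 3 h and at 14280 and 20280 TPM after 24 h, and TNNI3, cardiac troponin I, at 17610 and 16760 TPM against 13600 and 14170 TPM. Endothelial and fibroblast genes were present as well: PECAM1 stood at 89.0 and 58.3 TPM after 3 h and at 93.2 and 130.6 TPM after 24 h, and DCN at 230.7 and 190.2 TPM against 310.5 and 439.4 TPM. In biopsies of mixed cells, fewer cells of a type and less RNA per cell cannot be told apart. The SCS library stood apart from the other 6, with TNNT2 at 761.4 TPM. It enters no difference on TPM as deposited, but the scaling of libraries described below was set over all 7. It also counts toward the 7-library mean of the filter. Because of it, 51 of the 4388 genes that averaged under 10 TPM over the 6 HOPE libraries were tested. The share of TPM from the 13 mitochondrially encoded genes was 40.6% and 51.1% after 3 h and 47.9% and 39.8% after 24 h. Values are TPM, so a level is a share of the library's transcripts, and the read depth behind it is unknown.

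No single gene passed the threshold. With limma across the 4388 genes and Benjamini-Hochberg adjustment at 0.05, 0 genes (0% of those tested) were called in either direction, and the smallest adjusted p was 0.208. At an unadjusted p under 0.05 there were 663 genes, 627 higher after 24 h (14.3% of the genes tested) and 36 lower (0.82%). Counted by whether the libraries overlapped, 1724 genes were higher in both 24 h libraries than in both 3 h libraries (39.3%), and 455 were lower in both (10.4%). All counts of list members below are to be read against these shares, except where another is given. The filter was uneven between the groups. Of the 4388 genes, 383 averaged under 10 TPM after 3 h and 61 after 24 h, which favours higher values after 24 h. In each list up to 2 members with the smallest p are described, with the most abundant markers of each cell type, and any further gene was named after its values were seen. The count depended on single libraries: without 3 h replicate 1, 39 genes were called, all higher, CTGF, AMOTL2, MX2, FOSL1 and CYR61 among them, and without 24 h replicate 1, 1 gene was called lower, SMDT1, a subunit of the mitochondrial calcium uniporter, at 42.2 and 34.4 TPM after 3 h and 42.5 and 0.43 TPM after 24 h. In these fits the lone library is assumed to vary like the other groups. A median gene was 0.22 higher after 24 h on the log2(TPM + 1) scale, on which all differences here are given, and 69.1% of genes had a positive difference.

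This upward shift of the whole table depended on how libraries were scaled. After median-ratio scaling, which sets the typical gene to the same level in every library, the median difference was -0.0056 and 49.5% of genes were positive; 1237 genes were then higher in both 24 h libraries (28.2%) and 1213 lower in both (27.6%). At an unadjusted p under 0.05 the split became 380 higher and 227 lower. A list median close to 0.22 is therefore no different from the typical gene, and list medians below are given on both scales.

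The 3 h libraries differed from each other more than the 24 h libraries did. The median absolute difference between the pair was 0.40 (log2) at 3 h and 0.24 at 24 h. Replicate 2 of the 3 h group was below replicate 1 in 3591 of 4388 genes (81.8%), with a median of -0.35. A few genes had far wider gaps. NPPB, the B-type natriuretic peptide, stood at 128.2 TPM in 3 h replicate 1, at 1.06 TPM in replicate 2, and at 124.3 and 101.6 TPM in the 24 h libraries. NPPA, its atrial counterpart, stood at 134.1 and 1.92 TPM after 3 h and at 30.8 and 28.6 TPM after 24 h. KRT8, a keratin of mesothelial and other epithelial cells, stood at 139.8 and 4.09 TPM against 19.9 and 23.6 TPM. For NPPA and KRT8 the 24 h pair thus lay between the 3 h libraries. With 3 h replicate 2 left out, the median difference over all genes was 0.047, and with 3 h replicate 1 left out it was 0.40.

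**Figure D1:**
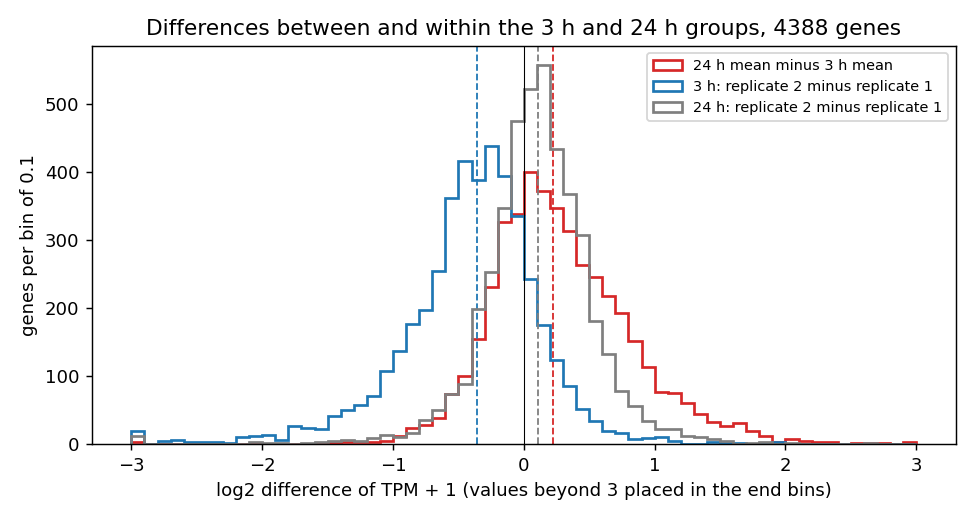
Number of genes (vertical axis) per bin of log2 difference of TPM + 1 (horizontal axis) for the 24 h mean minus the 3 h mean (red), 3 h replicate 2 minus replicate 1 (blue) and 24 h replicate 2 minus replicate 1 (grey), over 4388 genes; dashed lines are medians. The red median sits at 0.22 and the blue median at -0.35, farther from 0 than the difference between the groups.

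The named genes that were higher after 24 h were led by AMOTL2 and CTGF. Since none passed, 12 genes in each direction are described. They had the smallest unadjusted p among genes with a symbol, no overlap between groups and a mean of at least 20 TPM. The 12 higher genes had unadjusted p from 0.000191 to 0.00169 and a shared adjusted p of 0.208 in limma. AMOTL2 (ENSSSCG00000011643; chromosome 13, 75490936 to 75507360 in Sscrofa11.1), an angiomotin-like protein of cell junctions, stood at 8.71 and 5.59 TPM after 3 h and at 29.1 and 27.3 TPM after 24 h, a difference of 1.87 ± 0.29 (SE). CTGF (ENSSSCG00000004192; chromosome 1, 31674398 to 31677697), the secreted matricellular factor also called CCN2, stood at 49.6 and 16.4 TPM after 3 h and at 235.5 and 311.6 TPM after 24 h, a difference of 3.20 ± 0.52. For both genes the 24 h libraries were far above the 3 h libraries, and the smallest CTGF difference with 1 library left out was 2.43. AMOTL2 averaged 7.15 TPM after 3 h, so the filter favoured its rise. It reached the minimum mean of 20 TPM only with the SCS library, in which it stood at 33.6 TPM. CTGF and AMOTL2 are known targets of the YAP co-activator, as is CYR61, a matricellular relative of CTGF, which stood at 685.5 and 128.7 TPM after 3 h and at 916.4 and 975.9 TPM after 24 h (1.67 ± 0.67). CYR61 was low in 3 h replicate 2 in particular, and without that library its difference was 0.46.

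The other higher genes had a variety of roles. IL6ST, the signalling receptor subunit shared by the interleukin-6 family, stood at 18.8 and 9.53 TPM against 59.5 and 39.6 TPM (1.78 ± 0.39). CREB5, a transcription factor of the CREB family, stood at 10.2 and 3.33 TPM against 36.2 and 46.2 TPM, the second largest difference of the 12 at 2.59 ± 0.55. In both genes the 24 h libraries stood well above the 3 h libraries. CREB5 averaged 6.76 TPM after 3 h and reached the filter through other groups, which favours a rise. QKI, an RNA-binding regulator of splicing, stood at 37.8 and 29.4 TPM after 3 h and at 87.0 and 85.4 TPM after 24 h. SAMD9, an antiviral and growth-restraining protein, stood at 11.5 and 8.78 TPM against 29.7 and 26.2 TPM. RNF19B, an E3 ubiquitin ligase, stood at 52.2 and 38.7 TPM against 124.0 and 135.6 TPM. ATP13A3, BAZ1A and PLAGL1, a transport ATPase, a chromatin-remodelling subunit and a zinc finger transcription factor, had differences of 1.60, 1.49 and 1.62. RF00133 is a short-RNA family entry, a class for which poly(A)-selected libraries give uncertain levels.

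The 12 lower genes were smaller differences, with unadjusted p from 0.00998 to 0.0458 and adjusted p from 0.241 to 0.328 in limma. MARC2 (chromosome 10, 10156732 to 10194371), a symbol that otherwise stands for a reductase of the mitochondrial outer membrane but whose RefSeq entry at this position is typed as a long non-coding RNA, stood at 72.0 and 47.8 TPM after 3 h and at 31.6 and 16.2 TPM after 24 h (-1.33 ± 0.40). PFKM (chromosome 5, 78475473 to 78525052), the muscle phosphofructokinase that commits glucose to glycolysis, stood at 178.1 and 185.0 TPM against 89.3 and 90.2 TPM (-1.01 ± 0.39). ESRRA, the nuclear receptor that drives many mitochondrial genes, stood at 57.1 and 55.0 TPM against 30.0 and 35.5 TPM (-0.76 ± 0.28). Both PFKM and ESRRA had tight pairs on either side. MAVS, the mitochondrial adaptor of antiviral RNA sensing, stood at 85.1 and 92.3 TPM after 3 h and at 51.2 and 56.6 TPM after 24 h. EPHX1, the microsomal epoxide hydrolase, stood at 59.2 and 48.2 TPM against 25.1 and 30.9 TPM. PARVB, a parvin that joins integrins to actin, stood at 53.3 and 50.1 TPM against 18.2 and 32.5 TPM. ANXA6, CKS1B, MRPL28, TUBA1C and UBE2D4 had differences of -0.85, -0.72, -0.86, -0.75 and -0.87; they encode an annexin, a cell-cycle kinase subunit, a mitochondrial ribosomal protein, a tubulin and a ubiquitin-conjugating enzyme. RF00100, the 7SK RNA family, completed the set at -1.29. It stood at 8.71 and 21.1 TPM after 3 h and at 3.59 and 6.80 TPM after 24 h. It met the minimum mean set for named genes only with the SCS library, in which it stood at 168.9 TPM. Like RF00133, it is an RNA family entry whose level is uncertain in poly(A)-selected libraries.

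**Figure D2:**
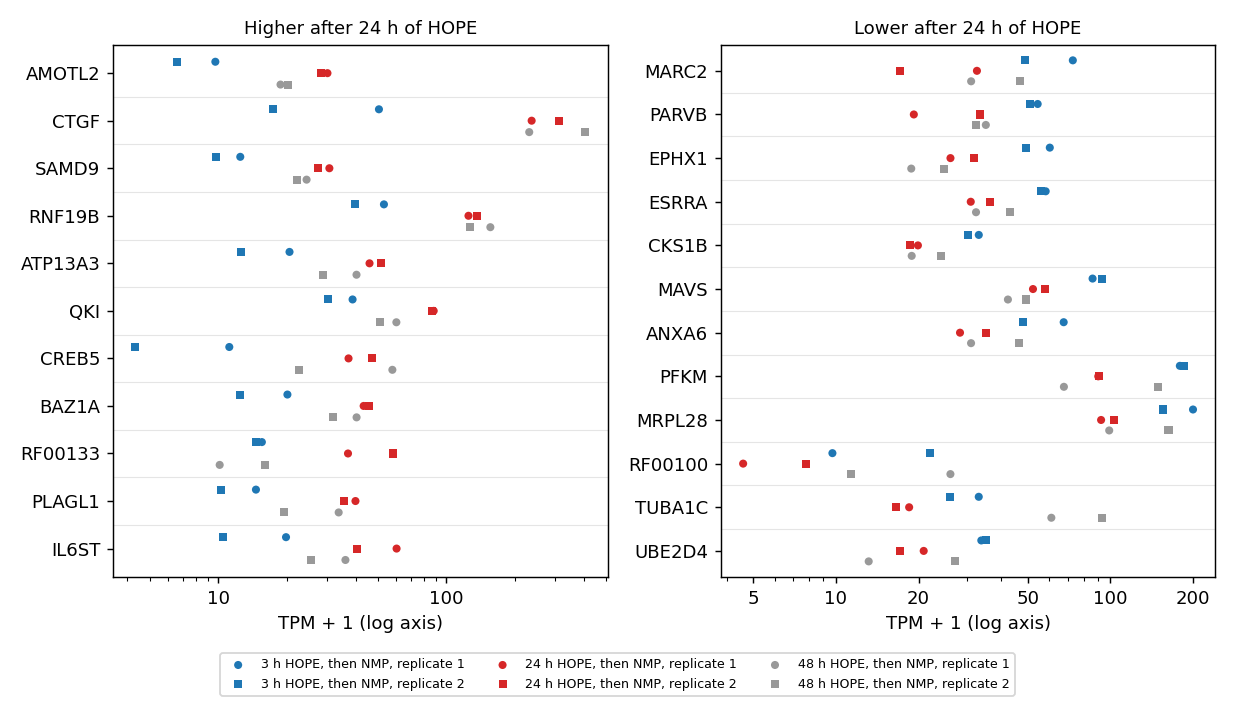
TPM + 1 on a log axis (horizontal) for 11 of the 12 higher genes (left) and the 12 lower genes (right), 1 point per library, blue for 3 h, red for 24 h and grey for 48 h of HOPE before NMP, circles and squares for replicates 1 and 2. Red and blue points do not overlap in any row, which the choice of genes fixes; grey points lie between them for QKI and SAMD9, among others, and for TUBA1C they lie above both, at 59.9 and 92.0 TPM.

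Cytokine, chemokine and adhesion genes were higher after 24 h almost throughout. Of 34 genes on the list of inflammatory cytokines, chemokines and NF-kB targets, 14 were tested; 12 of the 14 were higher in both 24 h libraries, against 39.3% of all genes, and 0 were lower in both. The median difference was 1.38, or 1.16 after median-ratio scaling, against 0.22 and -0.0056 for all genes. Scaling left 11 of the 14 higher in both, and 10 had an unadjusted p under 0.05. Since 6 of the 14 averaged under 10 TPM after 3 h and reached the filter through the other libraries, these counts describe the tested members and not the whole list.

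Adhesion molecules on activated endothelium had the best separated pairs. SELP (chromosome 4, 81376804 to 81401240), P-selectin, which lets leukocytes roll on the vessel wall, stood at 4.67 and 4.01 TPM after 3 h and at 21.96 and 14.6 TPM after 24 h (1.83 ± 0.33; adjusted p = 0.208 in limma). VCAM1 (chromosome 4, 117496914 to 117511211), a ligand for leukocyte integrins, stood at 56.7 and 54.1 TPM against 175.8 and 105.1 TPM (1.28 ± 0.33; adjusted p = 0.226 in limma). ICAM1, another integrin ligand, stood at 9.04 and 8.38 TPM against 29.7 and 17.4 TPM. In all 3 genes the 3 h values were close together and the lower 24 h value was above both. SELP averaged 4.34 TPM after 3 h, and both 3 h values of ICAM1 were under 10 TPM. These genes thus reached the filter through other groups, which favours a rise, whereas VCAM1 was above it after 3 h. SELE, the endothelial selectin, was not among the tested genes.

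Chemokines and NF-kB feedback genes were higher too, with wider spread. CCL2, which recruits monocytes, stood at 961.1 and 277.4 TPM after 3 h and at 2114 and 1332 TPM after 24 h (1.70 ± 0.54), and was by far the most abundant of the list. CXCL2, a neutrophil attractant, stood at 83.2 and 35.5 TPM against 399.9 and 180.0 TPM (2.28 ± 0.66), the largest difference on the list. CX3CL1, a membrane-bound chemokine of endothelium, stood at 10.7 and 6.64 TPM against 39.4 and 15.3 TPM. The inhibitors that NF-kB itself induces followed: NFKBIA stood at 148.9 and 118.6 TPM against 399.5 and 240.5 TPM, and TNFAIP3 at 7.93 and 4.86 TPM against 34.9 and 15.3 TPM. PTGS2, the inducible cyclooxygenase, stood at 14.3 and 6.64 TPM against 44.6 and 21.7 TPM. CX3CL1 and TNFAIP3 averaged under 10 TPM after 3 h and reached the filter through other groups, which favours a rise. Replicate 1 was above replicate 2 in all 14 tested members at 24 h, although it was above in only 36.9% of all genes, so the size of the difference hung on that library: without 24 h replicate 1 the list median was 0.92, and without replicate 2 it was 1.87.

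Interferon-induced genes, which encode antiviral effectors and RNA sensors, were higher in a similar share. Of 30 genes listed, 16 were tested; 13 were higher in both 24 h libraries and 0 lower in both, with a median of 1.09, or 0.86 after median-ratio scaling. On the scaled values 13 were higher and 1 was lower in both. The median stayed between 1.01 and 1.13 with any 1 of the 4 libraries left out, a narrower range than that of the inflammatory list. Of the 16, 7 averaged under 10 TPM after 3 h and reached the filter through the groups where they were high, which favours a rise among them. The 4 tested only because of the SCS library were IFIH1, DDX58, CMPK2 and USP18; without them 10 of 12 were higher in both, with a median of 1.08.

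IFIT5, which binds viral RNA, stood at 18.6 and 13.9 TPM after 3 h and at 38.4 and 38.6 TPM after 24 h (1.21 ± 0.27; adjusted p = 0.208 in limma). IFIH1, the cytosolic RNA sensor also called MDA5, stood at 3.66 and 3.44 TPM against 10.3 and 12.0 TPM (1.41 ± 0.32; adjusted p = 0.208 in limma). In both genes the pairs were tight. IFIH1, RSAD2 and DDX58 are among the 7 members that were under 10 TPM after 3 h, so their difference is a description of genes the filter favoured. Among other members, MX2, a dynamin-like antiviral GTPase, stood at 16.0 and 4.51 TPM against 42.9 and 38.9 TPM (2.11 ± 0.50). RSAD2, known as viperin, stood at 6.00 and 4.47 TPM against 27.6 and 12.0 TPM (1.64 ± 0.39). DDX58, the sensor RIG-I, stood at 4.20 and 3.19 TPM against 9.86 and 12.0 TPM (1.35 ± 0.35). The members that did not share this were GBP2, IFI35 and USP18, with differences of 0.12, -0.17 and -0.007; their pairs overlapped. MAVS, the adaptor on which IFIH1 and DDX58 act, was among the 12 lower genes above. Beside these lists, 0 of 12 neutrophil and 0 of 8 B cell markers reached the filter, and the summed neutrophil markers were 3.79 and 2.59 TPM after 3 h and 3.62 and 4.34 TPM after 24 h.

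**Figure D3:**
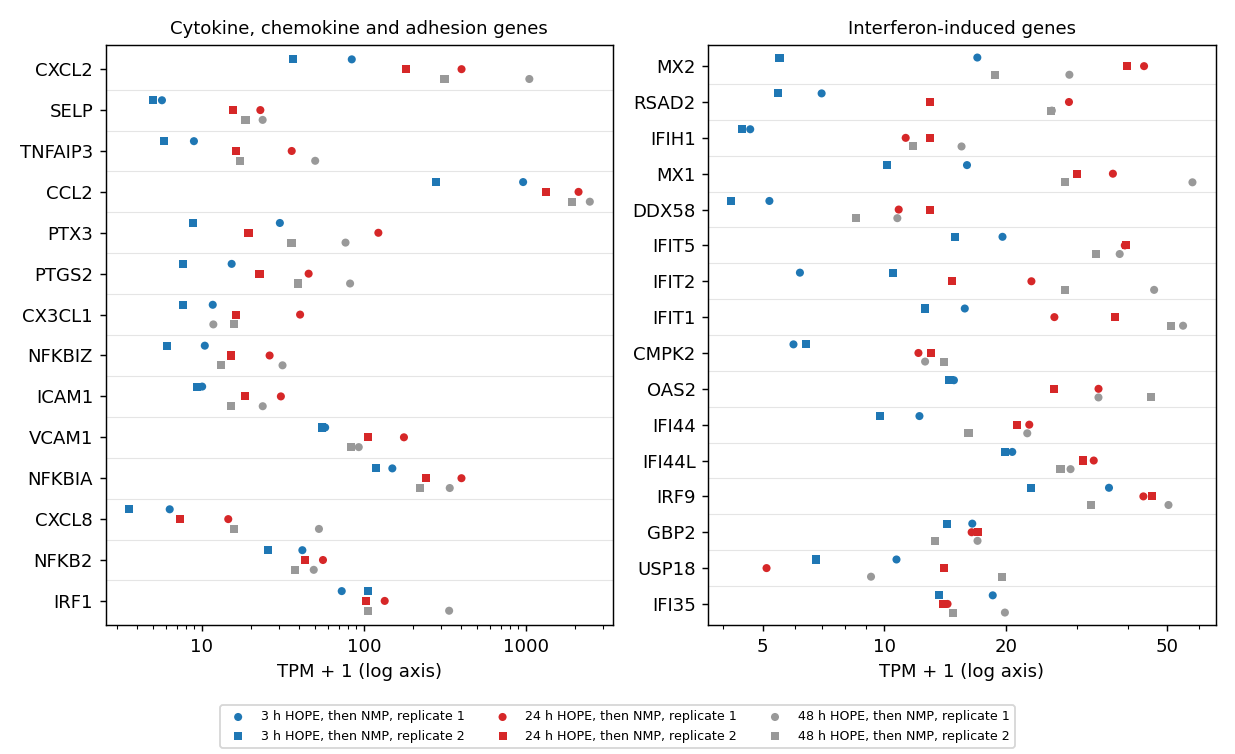
TPM + 1 on log axes for the 14 tested inflammatory genes (left) and the 16 tested interferon-induced genes (right), ordered by their difference, with 1 point per library in blue (3 h), red (24 h) and grey (48 h). In 12 of 14 and 13 of 16 rows both red points lie to the right of both blue points, and red circles (24 h replicate 1) lie to the right of red squares in every row on the left.

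Extracellular matrix genes were higher in nearly every tested member. Of 34 genes listed, 22 were tested and 20 were higher in both 24 h libraries, with 0 lower in both; the median was 0.91, or 0.68 after median-ratio scaling, where 20 again were higher in both. An unadjusted p under 0.05 was reached by 18 of the 22. FN1, POSTN, ADAMTS1 and ADAMTS9 averaged under 10 TPM after 3 h and reached the filter through other groups, so the counts describe the tested members and not the whole list. COL5A2 (chromosome 15, 93611856 to 93981131), a chain of fibril-forming collagen V, stood at 13.2 and 10.8 TPM after 3 h and at 25.5 and 31.1 TPM after 24 h (1.18 ± 0.27; adjusted p = 0.208 in limma). FN1, fibronectin, stood at 10.8 and 7.86 TPM against 17.8 and 30.0 TPM (1.24 ± 0.34; adjusted p = 0.241 in limma). Members with other roles included THBS1, the matricellular thrombospondin, at 429.0 and 169.3 TPM against 903.6 and 679.8 TPM, and the gelatinase MMP2 at 67.2 and 41.5 TPM against 110.8 and 113.6 TPM. Both of them, like most of the list, were lowest in 3 h replicate 2. Without that library the list median was 0.66, and without 3 h replicate 1 it was 1.31.

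Markers of the cells that make this matrix were higher as well. Of 6 tested fibroblast markers, 5 were higher in both 24 h libraries, with a median of 0.81, or 0.58 after scaling; 4 of the 6, LUM, COL3A1, COL1A2 and DCN, are also on the matrix list. LUM, lumican, stood at 19.7 and 20.8 TPM after 3 h and at 33.3 and 49.2 TPM after 24 h (0.96 ± 0.29), and COL3A1, collagen III, at 247.8 and 250.3 TPM against 377.8 and 507.7 TPM (0.81 ± 0.29). The 3 h values of LUM and COL3A1 were close together, so here the difference did not rest on 3 h replicate 2. Summed over the markers of the list that the table names, the level was 662.7 and 577.7 TPM after 3 h and 919.4 and 1262 TPM after 24 h. The part of the summed marker level in the matrix result was not tested.

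Endothelial markers showed a smaller difference. Of 11 tested, 8 were higher in both 24 h libraries, with a median of 0.64, or 0.42 after scaling, and 0.31 without 3 h replicate 2. KDR, the main endothelial VEGF receptor, stood at 32.7 and 17.3 TPM after 3 h and at 56.1 and 57.2 TPM after 24 h (1.22 ± 0.33), and ERG, an endothelial transcription factor, at 29.1 and 13.9 TPM against 39.5 and 42.1 TPM (0.98 ± 0.38). Abundant markers differed less: ENG, endoglin, stood at 167.0 and 108.6 TPM against 167.3 and 195.9 TPM. The summed markers were 690.2 and 373.3 TPM after 3 h and 686.7 and 813.3 TPM after 24 h, and these ranges overlapped. The part of the summed marker level in the adhesion gene result was not tested. Of 5 tested pericyte and smooth muscle markers, 1 was higher and 1 lower in both, with a median of 0.66, or 0.42 after scaling and 0.077 without 3 h replicate 2. PDGFRB, the pericyte growth factor receptor, stood at 16.6 and 11.8 TPM against 28.8 and 28.6 TPM, while KCNJ8, a potassium channel subunit, stood at 39.1 and 30.2 TPM against 15.3 and 21.4 TPM. Among the abundant contractile markers, TAGLN, transgelin, stood at 222.4 and 161.4 TPM against 276.4 and 199.2 TPM, and CNN1, calponin, at 265.0 and 39.6 TPM against 277.4 and 162.8 TPM; both overlapped.

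Genes of the response to low oxygen were mostly higher. Of 12 tested hypoxia-inducible genes, out of 25 listed, 8 were higher and 1 lower in both 24 h libraries; the median was 0.97, or 0.73 after scaling, and 0.48 without 3 h replicate 2. P4HA1, a collagen prolyl hydroxylase, stood at 14.9 and 11.9 TPM after 3 h and at 30.2 and 35.1 TPM after 24 h (1.23 ± 0.27; adjusted p = 0.208 in limma). HIF1A, the oxygen-regulated transcription factor, stood at 30.6 and 20.4 TPM against 51.2 and 53.6 TPM (1.04 ± 0.30; adjusted p = 0.241 in limma). The angiogenic factor VEGFA stood at 100.0 and 47.6 TPM against 192.0 and 157.0 TPM (1.32 ± 0.47). All 3 were separated between groups, P4HA1 most clearly. The member lower in both 24 h libraries was BNIP3, a mitophagy receptor, at 84.7 and 64.3 TPM against 55.6 and 52.0 TPM. Glycolytic enzymes, many of which hypoxia is known to induce, were not higher, as given below.

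Immediate early genes, the transcription factors switched on within minutes of a stimulus, were already abundant after 3 h and higher still after 24 h in part. Of 17 tested, 10 were higher and 0 lower in both 24 h libraries, with a median of 0.70, or 0.48 after scaling, 0.46 without 3 h replicate 2 and 1.09 without 3 h replicate 1. FOSL1, an AP-1 subunit, stood at 33.7 and 9.20 TPM after 3 h and at 77.9 and 60.2 TPM after 24 h (1.89 ± 0.52), and MAFF, a small MAF factor, at 142.7 and 56.2 TPM against 241.1 and 297.2 TPM (1.57 ± 0.49). In both genes 3 h replicate 2 was the low library, and without it the differences were 1.00 and 0.90.

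The chaperone list and the unfolded protein and integrated stress response list were closer to the typical gene. Of 21 tested chaperones, 9 were higher and 2 lower in both 24 h libraries, with a median of 0.45; after scaling it was 0.21, with 8 higher and 7 lower. Without 3 h replicate 2 the median was 0.030, and without replicate 1 it was 0.70. HSPH1, a large HSP110 chaperone, stood at 15.2 and 9.64 TPM after 3 h and at 26.8 and 27.9 TPM after 24 h (1.11 ± 0.33), and CHORDC1, an HSP90 co-chaperone, at 6.43 and 3.98 TPM against 12.7 and 11.4 TPM (1.10 ± 0.42). CHORDC1 was tested only because of the SCS library. The unfolded protein and integrated stress response list had 14 tested members, 6 higher and 0 lower in both, and a median of 0.32; after scaling it was 0.087, with 3 higher and 2 lower. Without 3 h replicate 2 it was 0.081, and without replicate 1 it was 0.61. Its exception was SESN2 (chromosome 6, 85321982 to 85348044), a stress-induced inhibitor of mTORC1 signalling, which stood at 3.44 and 2.34 TPM after 3 h and at 29.4 and 19.4 TPM after 24 h (2.69 ± 0.60; adjusted p = 0.208 in limma). SESN2 averaged 2.89 TPM after 3 h and reached the filter through other groups, which favours a rise. DNAJB9, an endoplasmic reticulum co-chaperone, stood at 17.0 and 13.6 TPM against 25.5 and 32.7 TPM (0.89 ± 0.30). Of the p53 and apoptosis list 5 were tested, 3 higher and 1 lower in both on either scale, with a median of 0.88, or 0.65 after scaling. PMAIP1, the pro-apoptotic protein NOXA, stood at 6.42 and 4.19 TPM against 25.8 and 13.6 TPM (1.67 ± 0.38; adjusted p = 0.208 in limma), and BIRC3, an inhibitor of apoptosis that NF-kB induces, at 27.5 and 21.5 TPM against 47.1 and 44.1 TPM (0.88 ± 0.30). Both were separated between the groups. PMAIP1 averaged 5.31 TPM after 3 h and, like SESN2, reached the filter through other groups.

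Splicing regulators differed modestly but evenly. Of 23 cold-inducible RNA-binding and splicing genes, 15 were tested and 13 were higher in both 24 h libraries, with 0 lower; after scaling 11 were higher and 2 lower. The median was 0.60, or 0.37 after scaling, and it stayed between 0.48 and 0.71 with any 1 of the 4 libraries left out. SRSF11, an SR-family splicing protein, stood at 49.0 and 44.7 TPM after 3 h and at 85.9 and 89.7 TPM after 24 h (0.89 ± 0.29), and TRA2A, a splicing activator, at 20.4 and 17.1 TPM against 38.4 and 31.6 TPM (0.87 ± 0.29). Both pairs were tight. The 2 proteins best known for induction by cold differed less: RBM3 stood at 212.4 and 188.5 TPM against 247.2 and 274.0 TPM, and CIRBP at 180.7 and 144.9 TPM against 165.4 and 158.2 TPM.

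The lower side of the comparison held genes of oxidative metabolism. Of 20 tested genes of the tricarboxylic acid cycle, 10 were lower and 0 higher in both 24 h libraries, against 10.4% of all genes lower in both; after scaling 14 were lower and 0 higher. The median was -0.31, or -0.55 after scaling. Without 24 h replicate 1 it was -0.10, and without 24 h replicate 2 it was -0.53. None of the 20 had an unadjusted p under 0.05. IDH3B, a subunit of NAD-dependent isocitrate dehydrogenase, stood at 89.9 and 87.3 TPM against 55.0 and 56.3 TPM (-0.66 ± 0.40; adjusted p = 0.474 in limma). Its pairs were tight and did not overlap. The standard error is shared with the 48 h libraries, in which IDH3B stood at 36.4 and 85.7 TPM.

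**Figure D4:**
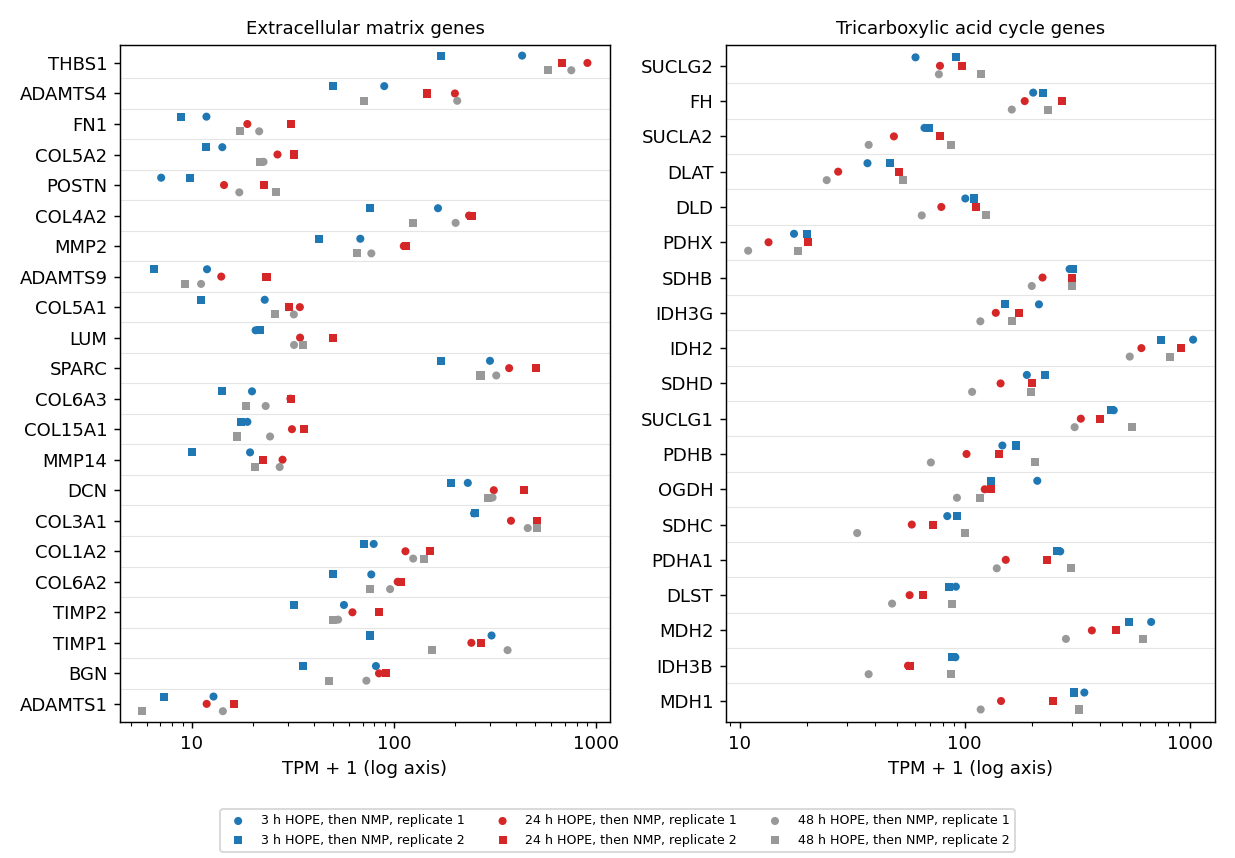
TPM + 1 on log axes for 22 tested extracellular matrix genes (left) and 19 of the 20 tested tricarboxylic acid cycle genes (right), ordered by their difference, with 1 point per library in blue (3 h), red (24 h) and grey (48 h). Both red points lie to the right of both blue points in 20 of the 22 matrix genes and to the left in 9 of the 19 cycle genes shown, and every red circle (24 h replicate 1) on the right lies to the left of its red square.

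Neighbouring metabolic lists had the same sign with smaller medians. SDHB, SDHC and SDHD are counted in both the cycle list and the respiratory chain list. Of 44 tested nuclear-encoded respiratory chain and ATP synthase genes, 8 were lower and 0 higher in both 24 h libraries (median -0.20); after scaling 27 were lower and 0 higher (median -0.44). Of 15 tested genes of fatty acid uptake and oxidation, 3 were lower and 0 higher in both (median -0.22); after scaling 10 were lower (median -0.45). Of 17 tested genes of glycolysis and glucose uptake, 5 were lower and 1 higher in both (median -0.21); after scaling 11 were lower and 0 higher (median -0.44). Of 13 tested genes of mitochondrial biogenesis, dynamics and carriers, 7 were lower and 2 higher in both (median -0.25); after scaling 9 were lower and 1 higher (median -0.48). On TPM as deposited these medians lay within the spread of the libraries: without 24 h replicate 1 they were 0.031 for the respiratory chain, -0.0094 for fatty acids, 0.032 for glycolysis and -0.094 for biogenesis. Without 24 h replicate 2 they ran from -0.34 to -0.41, and without 3 h replicate 1 those of fatty acids and glycolysis were 0.066 and -0.019.

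The members with the smallest p in these lists were the following. UQCRC2, a core subunit of complex III, stood at 106.0 and 124.2 TPM after 3 h and at 76.6 and 81.0 TPM after 24 h (-0.54 ± 0.31). ATP5F1A, the alpha subunit of ATP synthase, stood at 1552 and 1617 TPM against 865.2 and 1198 TPM (-0.64 ± 0.43). ACADS, the short-chain acyl-CoA dehydrogenase, stood at 71.0 and 61.6 TPM against 44.5 and 48.4 TPM (-0.50 ± 0.32). Each of these 3 was lower in both 24 h libraries, with adjusted p between 0.446 and 0.516 in limma. HADH, which acts on hydroxyacyl-CoA, stood at 223.1 and 174.0 TPM against 111.4 and 146.4 TPM (-0.62 ± 0.43). PFKL, the liver-type phosphofructokinase, stood at 64.5 and 25.8 TPM against 17.7 and 24.5 TPM (-0.94 ± 0.42), and -0.30 without 3 h replicate 1, so its size hung on that library. PINK1, the kinase that marks damaged mitochondria, stood at 30.9 and 22.02 TPM against 13.99 and 15.1 TPM (-0.80 ± 0.42).

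At 24 h replicate 1 had less nuclear-encoded metabolic transcript than replicate 2: it was the lower library in 20 of 20 cycle genes, 15 of 15 fatty acid genes and 42 of 44 respiratory chain genes. It was the higher library in 14 of 14 inflammatory genes and in 10 of 13 mitochondrially encoded genes, whose sums were 479500 and 398200 TPM. In the matrix list it was the higher library in 4 of 22 genes, and in the interferon list in 8 of 16. Over all genes replicate 1 was higher in 36.9%. Replicate 1 was thus the library farther from the 3 h pair on the cycle and inflammatory lists, and the nearer one on the matrix list.

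Mitochondrially encoded genes were mostly below the typical gene. Of the 13, 2 were higher and 1 lower in both 24 h libraries, with 5 positive and 8 negative differences and a median of -0.14; after scaling 0 were higher and 1 lower in both, 11 of the 13 were negative and the median was -0.37. The median was 0.076 without 3 h replicate 2 and 0.015 without 24 h replicate 2, so on TPM as deposited its sign hung on single libraries. ND4L, a complex I subunit, stood at 5121 and 6094 TPM after 3 h and at 7812 and 8262 TPM after 24 h (0.52 ± 0.21), while COX3, a complex IV subunit, stood at 65920 and 82240 TPM against 70300 and 54340 TPM.

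Cytosolic ribosomal protein genes also lay below the typical gene on TPM as deposited and after median-ratio scaling. On TPM as deposited 8 of 37 were higher and 0 lower in both 24 h libraries, with a median of 0.059, and 3 of the 37 were above the median of all genes. After median-ratio scaling 1 was higher and 23 were lower in both, with a median of -0.18. After quantile normalisation the list median was -0.040 against -0.054 for all genes, so on that scale the list was not below the typical gene. With 1 library left out the list median on TPM as deposited ran from -0.066 to 0.19. RPS21, of the small subunit, stood at 48.9 and 40.7 TPM after 3 h and at 60.5 and 58.0 TPM after 24 h, and RPL14, of the large subunit, at 233.4 and 113.7 TPM against 285.6 and 161.1 TPM. RPS21 was separated between the groups and RPL14 was not.

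Contractile genes were split. Of 22 tested sarcomere genes, 5 were higher and 4 lower in both 24 h libraries, with a median of -0.076, or 0.33 without 3 h replicate 1 and -0.29 without replicate 2. After scaling 4 were higher and 11 lower in both, with a median of -0.31. MYPN, myopalladin of the Z-disc, stood at 14.6 and 10.8 TPM after 3 h and at 33.7 and 37.3 TPM after 24 h (1.43 ± 0.36; adjusted p = 0.226 in limma). NEXN, the Z-disc protein nexilin, stood at 400.8 and 358.6 TPM against 750.9 and 824.7 TPM (1.05 ± 0.30; adjusted p = 0.241 in limma). ACTC1, cardiac actin, stood at 2540 and 3283 TPM against 3956 and 4756 TPM, whereas MYH7, the slow myosin heavy chain, stood at 5674 and 3676 TPM against 2414 and 3389 TPM. These 4 genes had pairs that did not overlap, in opposite directions. Summed ventricular cardiomyocyte markers were 61380 and 57370 TPM after 3 h and 43410 and 57140 TPM after 24 h: 24 h replicate 1 was low and replicate 2 was close to the 3 h pair. This sum moved with the metabolic lists within the 24 h pair, and its part in their difference was not tested. Of markers shared with other muscle, ACTA1, skeletal actin, stood at 15230 and 10310 TPM against 8928 and 11220 TPM, and CASQ1, the skeletal calsequestrin, at 18.5 and 18.9 TPM against 5.28 and 19.5 TPM. MYL1, a skeletal myosin light chain, stood at 23.5 and 14.9 TPM against 116.0 and 21.7 TPM, and MYL4, an atrial one, at 11.8 and 2.03 TPM against 36.2 and 5.54 TPM. PAM, an atrial enzyme that amidates peptides, stood at 124.3 and 70.5 TPM against 120.5 and 152.6 TPM. All 5 overlapped between the groups, and MYL1 and MYL4 were high in 24 h replicate 1 alone.

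Cardiac stress genes depended on a single 3 h library. Of 9 tested on the natriuretic peptide and cardiac stress list, 1 was higher and 1 lower in both 24 h libraries, and after scaling 1 and 2; the median was 0.95, or 0.72 after scaling, and ran from -0.16 without 3 h replicate 2 to 1.97 without replicate 1. ANKRD1, a stretch-induced ankyrin repeat protein, stood at 4827 and 1564 TPM after 3 h and at 5800 and 6508 TPM after 24 h (1.16 ± 0.48), and CSRP3, the muscle LIM protein, at 2712 and 1016 TPM against 2615 and 3943 TPM (0.95 ± 0.45). In both genes 3 h replicate 2 was the low library, and without it the differences were 0.35 and 0.24.

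Hormone-responsive and clock genes had medians nearer to that of all genes. Of 10 tested glucocorticoid-responsive genes, 5 were higher and 1 lower in both 24 h libraries, and after scaling 3 and 1; the median was 0.42, or 0.19 after scaling and 0.13 without 3 h replicate 2. KLF9, a Kruppel-like factor, stood at 61.9 and 48.7 TPM after 3 h and at 83.5 and 90.0 TPM after 24 h, and SGK1, a kinase that regulates ion transport, at 106.4 and 46.5 TPM against 109.8 and 157.1 TPM. Of 4 tested clock genes, 2 were higher and 1 lower in both, and after scaling 1 and 1, with a median of 0.18, or -0.047 after scaling. NR1D2, a clock repressor, stood at 15.2 and 12.6 TPM against 22.3 and 20.7 TPM, and NFIL3, another one, at 37.8 and 36.1 TPM against 45.7 and 55.5 TPM.

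Calcium handling genes had a median of 0.065, which turned to -0.17 after scaling; 4 of 12 were higher and 2 lower in both 24 h libraries. TRDN, triadin of the calcium release complex, stood at 187.2 and 202.2 TPM after 3 h and at 295.0 and 319.3 TPM after 24 h (0.65 ± 0.28), and RYR2, the cardiac ryanodine receptor, at 39.9 and 37.6 TPM against 49.4 and 60.5 TPM (0.49 ± 0.26). Antioxidant genes had a median of 0.086, which turned to -0.15 after scaling; NFE2L2, their main transcription factor NRF2, stood at 54.2 and 43.7 TPM against 89.8 and 77.1 TPM (0.76 ± 0.31), and TXNRD1, thioredoxin reductase, at 84.8 and 27.0 TPM against 84.6 and 98.3 TPM. Proteasome, ubiquitin and atrophy genes had a median of 0.053, which turned to -0.18; 6 of 23 were higher and 3 lower in both, and after scaling 4 and 9. FOXO1, a transcription factor of muscle atrophy, stood at 15.0 and 7.64 TPM against 21.4 and 17.2 TPM, and SQSTM1, the autophagy receptor p62, at 243.3 and 196.3 TPM against 316.4 and 325.5 TPM. With 1 library left out the median ran from -0.089 to 0.35 for calcium handling, from -0.080 to 0.41 for antioxidant genes and from -0.034 to 0.25 for the proteasome list. The medians of these 3 lists lay a little below that of all genes on both scales.

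**Figure D5:**
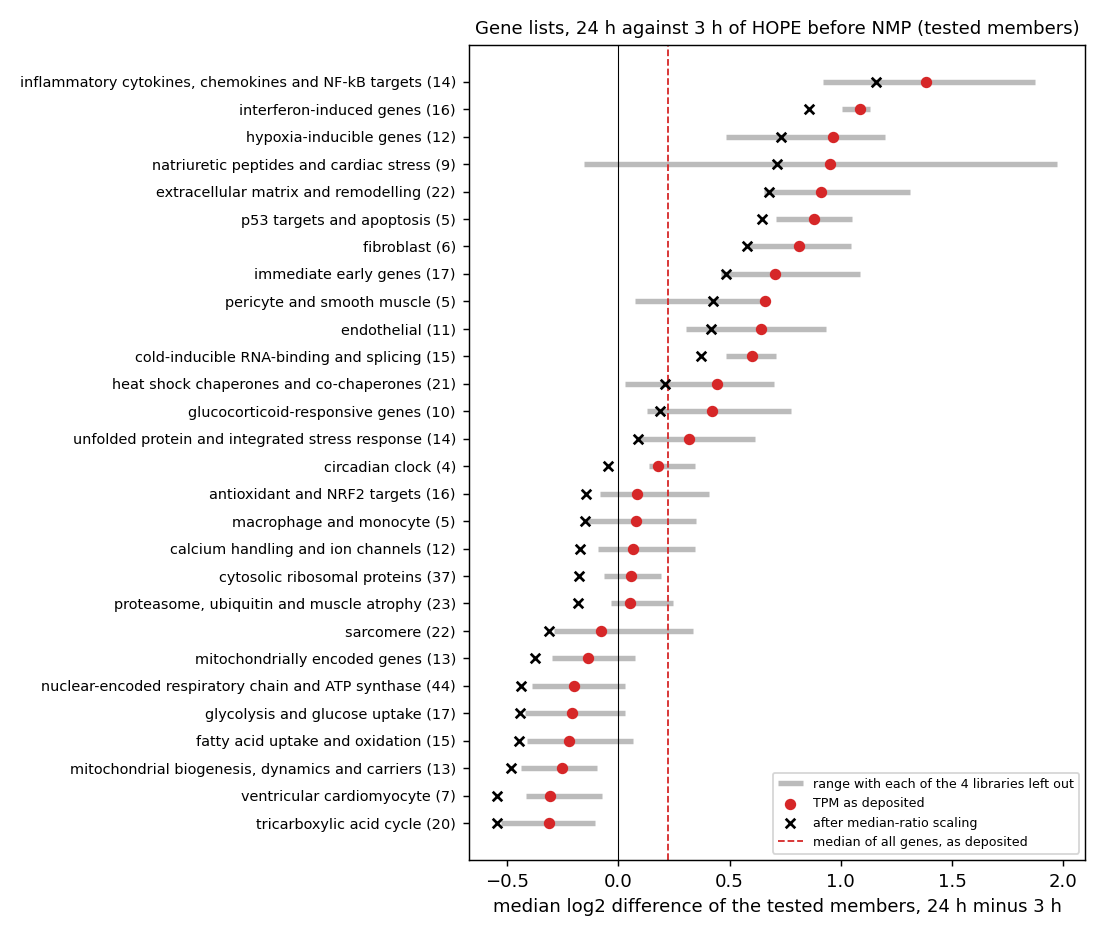
Median log2 difference (horizontal axis, 24 h minus 3 h) of the tested members of 28 gene lists with at least 4 tested members (number in brackets); red dots are TPM as deposited, crosses median-ratio scaled values, grey bars the range with each of the 4 libraries left out, and the dashed line the median of all genes, 0.22. Inflammatory and interferon-induced genes lie highest, at 1.38 and 1.09, and tricarboxylic acid cycle genes lowest, at -0.31; the widest bar, from -0.16 to 1.97, belongs to natriuretic peptides and cardiac stress.

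Blood cell markers were low in all 4 libraries. HBB, beta globin, stood at 150.0 and 103.1 TPM after 3 h and at 33.8 and 124.4 TPM after 24 h, and these pairs overlapped. It was much higher after 48 h, at 3086 and 1559 TPM, and in the SCS library, at 6134 TPM. The other tested red cell genes, ALAS2 and HBM, which make heme and a minor globin, were at most 2.30 TPM in the 4 libraries. Macrophage markers had a median of 0.079 over 5 tested, or -0.15 after scaling, and from -0.14 to 0.35 with 1 library left out. CD68, a lysosomal glycoprotein of macrophages, stood at 24.0 and 9.08 TPM after 3 h and at 35.1 and 59.4 TPM after 24 h, while LGMN, a lysosomal protease, stood at 69.8 and 38.7 TPM against 57.0 and 105.5 TPM. C1QA, a complement subunit made by macrophages, stood at 94.7 and 53.02 TPM against 41.1 and 89.3 TPM. Summed macrophage markers were 297.5 and 184.4 TPM against 214.9 and 370.7 TPM, so the groups overlapped. Of the T and NK cell list, GNLY alone reached the filter; the summed list was 18.5 and 32.2 TPM after 3 h and 18.6 and 38.9 TPM after 24 h. Of the platelet list, 0 were tested. Of the adipocyte list GPD1 alone was tested, a glycerol phosphate dehydrogenase, at 19.9 and 21.1 TPM against 12.3 and 14.9 TPM.

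The 48 h hearts share the 3 h libraries as reference, so only their own levels are set beside the 24 h values. CTGF stood at 229.8 and 405.3 TPM after 48 h and AMOTL2 at 17.8 and 19.3 TPM. CXCL2 stood at 1050 and 313.8 TPM, SELP at 22.7 and 17.6 TPM, and IFIT1, another interferon-induced RNA-binding protein, at 53.8 and 50.2 TPM, compared with 25.4 and 36.2 TPM after 24 h and 14.8 and 11.6 TPM after 3 h. IFIT1 was thus higher in both 48 h libraries than in either 24 h library, and CTGF and CXCL2 overlapped between 24 h and 48 h. HIF1A stood at 25.2 and 30.2 TPM after 48 h, KDR at 23.4 and 22.6 TPM and PDGFRB at 9.97 and 8.80 TPM, all below both 24 h libraries. On TPM as deposited, 907 of the 4388 genes were higher in both 24 h libraries than in all 4 libraries of 3 h and 48 h. Another 37 were lower than in all 4. These counts were not recomputed after scaling, and the list counts that follow are to be read against 907 of 4388. The matrix list had 11 of 22 members in the first set and the splicing list 11 of 15, against 2 of 14 of the inflammatory list and 4 of 16 of the interferon list. PFKM stood at 66.7 and 147.8 TPM after 48 h, a spread far wider than at 24 h. After 24 h of SCS the single library had SELP at 7.44 TPM, VCAM1 at 167.6 TPM and HSPH1 at 613.5 TPM; it has no replicate.

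Biopsies taken during cold HOPE, before any NMP, show what these genes did in the cold. They come from another arm of the study with another library kit and count table, from pigs 2, 4 and 6, and are given as each pig's log2 difference between 24 h and 0 h of HOPE without a test across arms. CTGF differed by 0.015, -0.27 and 1.97 in the 3 pigs and AMOTL2 by 0.13, 0.10 and -0.69. SELP differed by 0.69, 0.86 and -0.73, IFIT5 by 0.098, 0.066 and -0.70, and COL5A2 by 0.035, 0.094 and -0.059. None of these 5 genes, given as examples, was higher in all 3 pigs. Other genes described above as higher after 24 h went both ways in the cold. For example, HSPH1, MYPN and NEXN were positive in all 3 pigs, and PMAIP1 and KLF9 were negative in all 3. Of the 12 named higher genes, 1 had a positive value in all 3 pigs (RNF19B) and 2 a negative one in all 3 (ATP13A3 and PLAGL1). Of the 11 named lower genes with a value, 6 were positive in all 3 pigs: MARC2, PARVB, EPHX1, ANXA6, PFKM and UBE2D4. TUBA1C was negative in all 3, at -0.017, -0.12 and -0.46. Of the 3476 tested genes with a value in every pig, 22.04% were positive in all 3 and 8.77% negative in all 3. PFKM, for example, differed by 0.047, 0.24 and 1.28.

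The 3 pigs differed by list in the cold. The inflammatory list had medians of 0.087, -0.071 and -0.66, the interferon list 0.064, -0.33 and -0.81, and the matrix list 0.051, -0.068 and -0.039. The tricarboxylic acid cycle list had medians of 0.016, 0.19 and 0.99. Over the 3476 tested genes with a value, the medians were 0.040, 0.0070 and 0.17. In pigs 4 and 6, then, the inflammatory and interferon lists lay below and the cycle list above the typical gene in the cold, farther in pig 6. Pig 2 did not share this, and its list medians were near that of all genes. With edgeR on the reads recovered from that table and the pig as a block, 0 of 14654 genes passed for 24 h against 0 h of HOPE, with 626 at an unadjusted p under 0.05 and a smallest adjusted p of 0.134; limma was not run on that table.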

How the data were processed

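RNA sequencing of pig myocardium was deposited as 2 tables, and the 4 libraries compared lie in the table of reperfused hearts. Its columns each sum to the same round total, so the authors' deposited values were read as TPM although the file is called normalised counts; read depth is unknown, and counting tests could not be used there. The authors' deposited table of cold hearts held normalised counts, a signal from which whole reads were recovered (100.0% of values whole within 0.01; 22583205 to 34646234 reads a library). Per the submitters' processing notes, the tools included the aligners STAR 2.5.2b and HISAT2 2.2.1, the counters Subread 1.5.2 and featureCounts 2.0.6, and DESeq2, on the build Sscrofa11.1; which tool made which table is not stated. Both kits selected poly(A) RNA, and spike-in RNA was added to the reperfused set, per the labels' protocols; spike-in scaling was not used here.

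Genes with a mean of at least 10 TPM over the 7 reperfused libraries were tested with limma 3.58.1 in R 4.3.3 (lmFit and eBayes with a mean trend, two-sided) on log2(TPM + 1), a scale that understates the change of low genes. All 7 libraries shared 1 spread per gene, with 3 residual degrees of freedom, and p-values were adjusted by Benjamini-Hochberg over 4388 genes at 0.05. On simulated data of this layout with 4388 genes the fit recovered 5 of 100 genes changed by 1 and 64 of 100 changed by 2 on the log2 scale, so smaller differences were mostly beyond its reach. The simulated noise was drawn gene by gene, without shifts shared by a whole library as seen in 3 h replicate 2. Recovery in the real libraries may therefore differ. Symbols came from the table for 3101 tested genes and from the cold table for 421; 866 had none and could not enter a list, and a symbol missing from a list count may be among them. Positions are those of the symbol in the RefSeq table of Sscrofa11.1. The genes named in each direction were to be those that passed. As none did, they are the 12 with the smallest unadjusted p among genes with a symbol, no overlap and a mean of at least 20 TPM. Further genes are the 2 with the smallest p in each list, abundant cell type markers, and others picked after their values were seen. The members and the gene lists were chosen with earlier results of these data known. For the cold hearts, each pig's difference is in log2(normalised count + 1), and edgeR 4.0.16 was run on the recovered reads. The values of 2 genes these rules select are not reported here. A further 11 columns of the reperfused table belong to none of these samples and were left aside.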

Additional observations from a re-analysis of the deposited data

How the results depend on the processing

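The count of 0 genes called by limma held under 14 of 17 alternatives: pseudocounts of 0.1 and 10, a minimum mean of 1 or 50 or none, quantile normalisation, median-ratio scaling, mitochondrially encoded genes left out, eBayes without a trend, the 4 libraries alone, the SCS library left out, a filter over the 6 HOPE libraries (added after seeing the data), and 3 h replicate 2 or 24 h replicate 2 left out. The number at an unadjusted p under 0.05 ranged over all 17 from 137 to 1633 higher and from 12 to 290 lower. With the replicate number as a replicate block over the 6 HOPE libraries, 30 genes were called higher and 0 lower. Deviations of libraries with equal numbers correlated at 0.09, 0.16 and 0.38 across genes, the labels do not say that numbers pair, and with 2 libraries a group the other pairings mirror these values, so the block is not relied on. With 1 library left out, the count called higher ranged from 0 to 39 and the count called lower from 0 to 1. Of 1970 values for 120 named genes, 30 changed sign. With 1 library left out, the log2 difference ranged from -0.19 to 5.79 for NPPB, -2.14 to 3.39 for NPPA, -0.75 to 0.44 for GNLY, -1.85 to 0.0011 for HBB, -0.42 to 0.091 for TNNT2, -0.74 to 0.72 for USP18, -0.39 to 0.053 for IFI35, -0.16 to 0.16 for CIRBP, -0.12 to 0.91 for RPL14, -1.65 to 0.062 for CASQ1, -0.32 to 2.40 for CNN1, -0.77 to 0.33 for C1QA, -0.23 to 0.28 for HBM, -2.63 to 2.16 for KRT8 and -4.77 to 0.15 for SMDT1. Quantile normalisation gave 0.030 for TNNT2, 0.091 for ACTA1, -0.44 for HBM and -0.20 for GBP2, median-ratio scaling -0.097 for GBP2 and -0.14 for HBM, leaving out mitochondrially encoded genes -0.016 for HBM, and a pseudocount of 10 gave -0.062 for NPPA and 0.033 for USP18. The cause was not tested. Of 251 list medians recomputed over 28 lists, 28 changed sign, none of them of the inflammatory, interferon, hypoxia, matrix, immediate early, splicing, endothelial, fibroblast or tricarboxylic acid cycle lists. With 2 libraries a group and unknown depth, a gene that was not called is not shown to be equal.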
